A study of Mus musculus with 4 samples.

Results

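The transcripts described here come from 10 maternal-effect and related oocyte genes (Nlrp5, Nlrp14, Ooep, Padi6, Dppa3, Npm2, Dazl, H1f8, Oas1d and Tcl1), measured in pools of cumulus cells (CCs), the somatic cells that enclose the antral oocyte. The members were chosen by gene name, with earlier results of these data known, and every probe of them was kept whatever its signal. This gave 10 of 16593 named genes and 14 of the 25697 probes of an Illumina mouse BeadChip. Of these, 10 probes for 8 genes carry the symbol in the deposited table (H1f8 as H1foo), and 4 probes for Nlrp5 and Ooep were found through their gene IDs, because the table lists them under the older names NALP5 and 2410146L05RIK. The study compared 2 pools of CCs from developmentally incompetent oocytes with a non-surrounded nucleolus (NSN-CCs) and 2 pools of CCs from competent oocytes with a surrounded nucleolus (SN-CCs), each pool on 1 array. All donors were B6C3F1 females of 6 weeks in the labels (4 to 6 weeks in the study's methods), and all had received the gonadotrophin folligon 48 hours before collection. The oocyte was pipetted out of each complex by hand and typed by its Hoechst-stained chromatin, the CCs were then pooled by type over many complexes, and no cell sort was described. The labels give the tissue as oocytes, whereas titles and source names say cumulus cells.

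A maternal-effect gene is transcribed in the growing oocyte, and its product is needed by the embryo before the embryonic genome takes over. Nlrp5 (also MATER) and Ooep (also FLOPED) encode core subunits of the subcortical maternal complex beneath the egg membrane, and Padi6 encodes a peptidylarginine deiminase of the cytoplasmic lattices of the egg. Npm2, Dppa3 and H1f8 act on chromatin, Dazl binds mRNA in germ cells, and Tcl1 is known from lymphocytes as well as from oocytes. In bulk RNA of this kind, fewer cells of a type and less RNA per cell cannot be told apart.

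The members lie on 8 chromosomes (Nlrp5 and Nlrp14 both on 7, Dppa3 and H1f8 both on 6). Upstream sequences of 4 are shown, since the signals described next were lower in NSN-CCs for Ooep, H1f8 and Dazl and overlapped between types for Padi6. RefSeq starts (GRCm38.p6) were at hand for 6 of the 10 genes, with 7 starts. The 200 bases before the start are given 5′ to 3′ on the strand of the gene, with every E-box (the letters CANNTG on either strand, the kind of site the oocyte factor FIGLA binds) in capitals.
Ooep, chr9:78378589-78378788, minus strand: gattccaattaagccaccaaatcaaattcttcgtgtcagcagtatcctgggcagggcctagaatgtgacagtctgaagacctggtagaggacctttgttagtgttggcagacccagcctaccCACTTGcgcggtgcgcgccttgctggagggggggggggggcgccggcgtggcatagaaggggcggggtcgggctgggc
H1f8, chr6:115944731-115944930, plus strand: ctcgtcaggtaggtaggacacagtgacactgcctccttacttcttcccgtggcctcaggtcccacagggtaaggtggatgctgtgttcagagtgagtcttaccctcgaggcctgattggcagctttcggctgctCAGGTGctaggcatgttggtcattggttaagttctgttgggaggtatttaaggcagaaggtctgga
Dazl, chr17:50293621-50293820, minus strand: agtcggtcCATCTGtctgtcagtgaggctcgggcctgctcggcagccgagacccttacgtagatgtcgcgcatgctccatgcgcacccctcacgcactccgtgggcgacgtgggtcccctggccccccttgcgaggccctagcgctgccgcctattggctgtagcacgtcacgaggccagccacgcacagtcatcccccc
Padi6, chr4:140742644-140742843, minus strand: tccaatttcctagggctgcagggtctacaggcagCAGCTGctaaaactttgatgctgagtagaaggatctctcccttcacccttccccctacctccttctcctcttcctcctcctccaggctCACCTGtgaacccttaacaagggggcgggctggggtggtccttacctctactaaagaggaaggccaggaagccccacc
An E-box was present before all 7 starts, and before 58.2% of the 32851 mouse starts with a window of this length. Padi6 held 2 E-boxes and Ooep, H1f8 and Dazl 1 each. Nlrp5, which also had probes lower in NSN-CCs, held 2 before each of its 2 starts, and Tcl1 held 1. The letters TAATTG, which the oocyte homeobox factor NOBOX can bind, occurred on either strand before 1 of the 7 starts (Ooep) and before 5.63% of all starts. The TATA box TATAAA occurred before 1 of the 7 starts (1 of the 2 Nlrp5 starts) and before 9.96% of all starts. These matches describe the letters in the window, and their relation to the signals was not tested.

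Signals below are the deposited intensities in arbitrary units, which still hold the background. The 95th percentile of 1392 chemosensory receptor probes served as the background limit of an array, and it lay between 116.4 and 119.6 in NSN-CCs and between 116.2 and 119.6 in SN-CCs. Above it on all 4 arrays were 10572 of all probes and 10 of the 14 member probes, at least 1 for every member except Npm2. SN-CCs replicate 2 was the array least like the others. Its correlation over all probes was 0.93 with NSN-CCs replicate 1 and 0.934 with SN-CCs replicate 1. The correlation was 0.995 between the NSN-CCs pools and 0.993 between NSN-CCs replicate 1 and SN-CCs replicate 1. On SN-CCs replicate 2, 11691 probes were above the limit, against 13536 and 13660 in NSN-CCs and 13598 on SN-CCs replicate 1. For the comparison, log2 signals of all probes entered limma after normexp background correction and quantile normalization. A log2 difference is NSN-CCs minus SN-CCs, its standard error comes from limma, and an adjusted p is Benjamini-Hochberg over all 25697 probes. With 2 pools against 2 an exact two-sided permutation test cannot go below p = 0.333, so it was not used for single genes. The CCs markers were bright: 15 of 17 measured granulosa and cumulus genes were above the limit on all arrays.

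**Figure D1:**
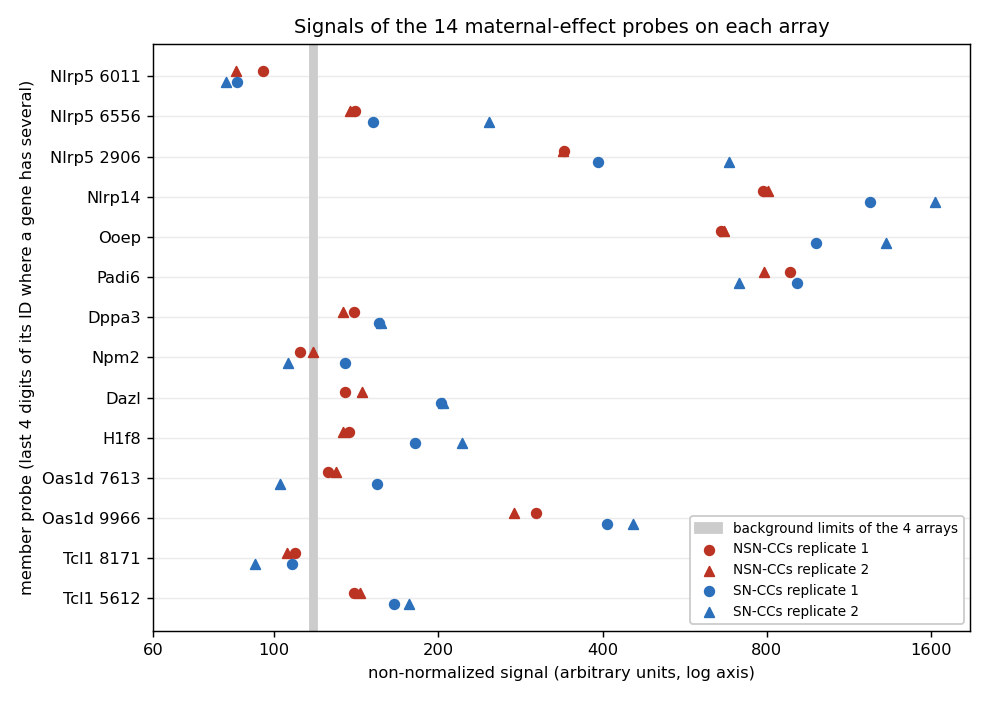
Non-normalized signal (log axis, arbitrary units) of each of the 14 member probes on the 2 NSN-CCs arrays (red) and the 2 SN-CCs arrays (blue), with the range of the background limits in grey. For 9 probes both red points lie left of both blue points, while the other 5 overlap, among them Padi6.

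Of the 14 member probes, 9 had both NSN-CCs pools below both SN-CCs pools, and none had them above. Over the whole array the corresponding shares were 22.2% below and 16% above, and among the probes above the limit on all arrays 28% below and 16.1% above. These 9 probes belong to Nlrp5, Nlrp14, Ooep, Dppa3, Dazl, H1f8, Oas1d and Tcl1, and they separated the pools in the deposited signals as well as after normalization. Their log2 differences lay between -0.85 and -0.45. No member passed the test: limma called 0 member probes at an adjusted p under 0.05, as it called 0% of all probes, and the lowest adjusted p of a member was 0.811. At an unadjusted p under 0.05, 4 member probes were lower in NSN-CCs (Nlrp14, Ooep, Dazl and 1 probe of Oas1d) and 0 higher, against 2.02% lower and 1.09% higher of all probes, and 4.34% lower and 2.02% higher of the probes above the limit on all arrays. A log2 difference below 0 was found for 11 of the 14, against 56% of all probes and 62.5% of those above the limit. The median log2 difference of the 14 probes was -0.65, against -0.033 for all probes and -0.13 for those above the limit on all arrays. Without SN-CCs replicate 2 it was -0.26, against -0.00080 for all probes, with 1 pool of SN-CCs left to judge by. In that setting both NSN-CCs pools lay below the remaining SN-CCs pool for 12 of the 14 probes, against 35.8% of all probes and 39.3% of those above the limit. The difference was then below 0 for 13 of the 14, against 50.2% of all probes and 50.2% of those above the limit. The members were chosen with earlier results of these data known, so these counts describe the list and do not test it.

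Nlrp14 encodes an NLR protein of oocytes that the early embryo requires. Its signals were 787 and 803 in NSN-CCs against 1237 and 1628 in SN-CCs. The NSN-CCs pools were close to each other and both were well below either SN-CCs pool. The log2 difference was -0.85 (standard error 0.25, 95% interval -1.52 to -0.17, limma's adjusted p = 0.811), which is 1.80-fold on the linear scale, and -0.51 without SN-CCs replicate 2.
Ooep showed 660 and 667 in NSN-CCs against 983 and 1325 in SN-CCs. The 2 types of CCs did not overlap here either. Its log2 difference was -0.82 (standard error 0.27, limma's adjusted p = 0.811), and -0.45 without SN-CCs replicate 2.
Nlrp5, the partner of Ooep in the subcortical maternal complex, was read by 3 probes that did not behave alike. Probe ILMN_3152906 had 340 and 338 in NSN-CCs against 392 and 683 in SN-CCs, and probe ILMN_2696556 had 141 and 138 in NSN-CCs against 152 and 248 in SN-CCs. In both, SN-CCs replicate 2 held by far the highest signal, while SN-CCs replicate 1 was only slightly above the NSN-CCs pools. The log2 difference was -0.77 for each (standard errors 0.45 and 0.46, limma's adjusted p = 0.811), and -0.14 for each once SN-CCs replicate 2 was left out. The third probe, ILMN_2646011, stayed under the background limit on every array (95.5 and 85.1 in NSN-CCs, 85.3 and 81.7 in SN-CCs) and gave 0.084 (standard error 0.15).
Padi6 was well above background everywhere and its pools overlapped. Its signals were 884 and 790 in NSN-CCs against 911 and 713 in SN-CCs, and its log2 difference was -0.024 (standard error 0.15). The 95% interval of that difference ran from -0.42 to 0.37, so the data do not show that the level was equal.

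Dppa3 (also Stella), which protects the maternal genome from loss of DNA methylation in the zygote, had dim signals of 140 and 134 in NSN-CCs against 156 and 157 in SN-CCs. In these deposited signals the types did not overlap. The log2 difference was -0.45 (standard error 0.22, limma's adjusted p = 0.811), and -0.21 without SN-CCs replicate 2.
H1f8, the linker histone of the oocyte, gave 137 and 134 in NSN-CCs against 181 and 221 in SN-CCs. Both SN-CCs pools were higher than both NSN-CCs pools. The log2 difference was -0.84 (standard error 0.33), and -0.45 without SN-CCs replicate 2.
Npm2, a nucleoplasmin that organises chromatin in the egg and zygote nucleus, was near background. It had 112 and 118 in NSN-CCs against 135 and 106 in SN-CCs, and only 2 of its 4 values were above their array's limit. In these deposited signals the 2 SN-CCs pools lay on either side of the NSN-CCs pools, while after normalization SN-CCs replicate 2 lay between the NSN-CCs pools. The log2 difference of Npm2 was -0.11 (standard error 0.17), with an interval from -0.57 to 0.36.
Dazl, an RNA-binding protein that controls translation in germ cells, had 135 and 145 in NSN-CCs against 202 and 204 in SN-CCs. The 2 SN-CCs signals were nearly the same and clearly above both NSN-CCs signals. Its log2 difference was -0.81 (standard error 0.25, 95% interval -1.49 to -0.13, limma's adjusted p = 0.811), and -0.56 without SN-CCs replicate 2. Dazl and H1f8 are also in the list of lower genes that the study drew from these arrays, so their direction is not independent evidence.

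Oas1d, an oligoadenylate synthetase family member of the ovary, had 2 probes. The brighter one, ILMN_2929966, showed 302 and 275 in NSN-CCs against 407 and 455 in SN-CCs, with no overlap between the types. Its log2 difference was -0.79 (standard error 0.27, limma's adjusted p = 0.811), and -0.44 without SN-CCs replicate 2. The dimmer one, ILMN_2737613, showed 126 and 130 in NSN-CCs against 155 and 102 in SN-CCs, so that the SN-CCs pools lay on both sides of the NSN-CCs pools. That probe gave 0.0070 (standard error 0.24), and -0.31 without SN-CCs replicate 2.
Tcl1, a co-activator of AKT kinase needed for normal cleavage, also had 2 probes. ILMN_2985612 had 140 and 144 in NSN-CCs against 166 and 177 in SN-CCs, which did not overlap. Its log2 difference was -0.54 (standard error 0.26), and -0.24 without SN-CCs replicate 2. ILMN_2638171 was under the limit on all arrays (109 and 106 in NSN-CCs, 108 and 92.1 in SN-CCs) and gave 0.089 (standard error 0.16).

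**Figure D2:**
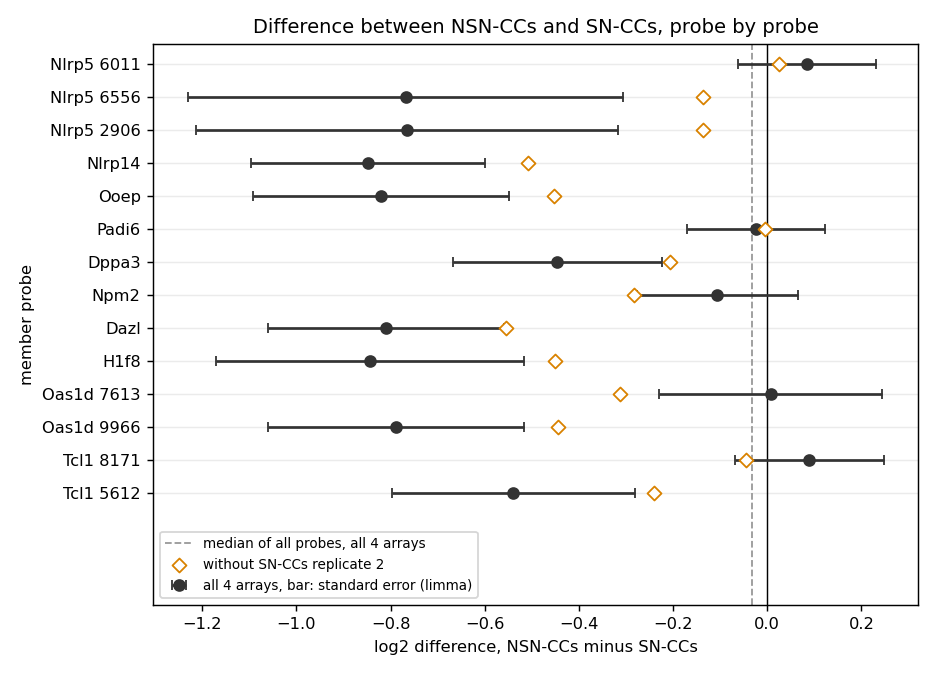
Log2 difference (NSN-CCs minus SN-CCs) of each member probe on the 4 arrays (filled points, bars are limma's standard errors) and without SN-CCs replicate 2 (open diamonds). The 9 non-overlapping probes lie between -0.85 and -0.45, and between -0.56 and -0.14 in the diamonds.

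The spread between pools differed by type of CCs. Replicate pools of NSN-CCs had a median SD of 0.038 (log2) over the member probes, and those of SN-CCs a median SD of 0.44. Over all probes above the limit on all arrays the median SD was 0.072 in NSN-CCs and 0.37 in SN-CCs. The log2 value of SN-CCs replicate 2 exceeded that of SN-CCs replicate 1 by 0.62 (median of the 14 probes), against 0.072 for all probes and 0.26 for those above the limit. For some members that gap was small before normalization. Dazl had 202 and 204 in the deposited signals of SN-CCs replicates 1 and 2 but a log2 difference of 0.61 between them afterwards, and Dppa3 156 and 157 with 0.52. Tcl1 probe ILMN_2985612 had 166 and 177 with 0.65, and Oas1d probe ILMN_2929966 had 407 and 455 with 0.68. The dim Nlrp5 probe ILMN_2696556 and H1f8 already differed between these pools before normalization, with 152 and 248 for Nlrp5 and 181 and 221 for H1f8. With no normalization between arrays, an alternative added after the data were seen, 9 member probes had both NSN-CCs pools below both SN-CCs pools, against 23.2% of all probes. The median difference of the 14 member probes was then -0.44, against 3.35e-05 for all probes. Leaving out SN-CCs replicate 1 instead, limma called 9 member probes lower at an adjusted p under 0.05, but it called 37.2% of all probes there. That fit holds 1 SN-CCs pool and takes its spread from the NSN-CCs pools.

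**Figure D3:**
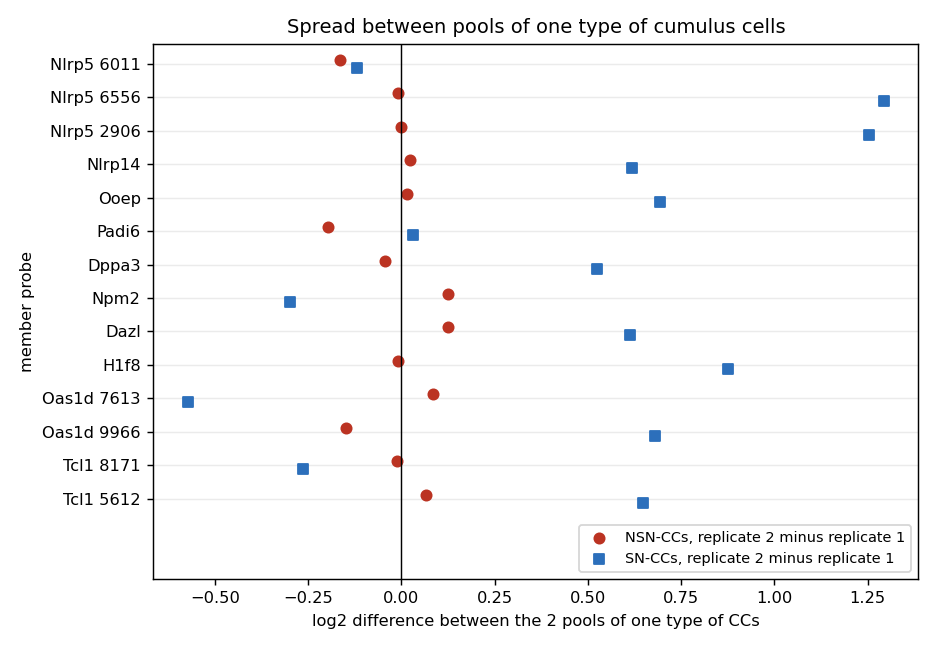
Log2 difference between replicate 2 and replicate 1 within NSN-CCs (red circles) and within SN-CCs (blue squares) for each member probe. The NSN-CCs pools stay within 0.20 of each other, whereas the SN-CCs pools differ by 0.52 to 1.29 for the 9 probes that did not overlap between types.

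Other genes of the same complex and family were measured too. Of 14 further listed genes of the subcortical maternal complex and the oocyte NLRP genes, 11 were on the array, and on the brightest probe of each all 11 had a log2 difference below 0 (median -0.17), against 56% of all probes. Without SN-CCs replicate 2, 10 of the 11 were below 0 (median -0.097), against 50.2% of all probes. None of the 11 passed limma's test. At an unadjusted p under 0.05, 0 were lower or higher, against 2.02% lower and 1.09% higher of all probes. Only 2 of the 11 were above the limit on all arrays. These were Tle6, another core subunit of the complex, with 1366 and 1348 in NSN-CCs against 1513 and 2074 in SN-CCs, and Khdc3 (FILIA), with 132 and 143 in NSN-CCs against 139 and 183 in SN-CCs. Tle6 did not overlap between types and had a log2 difference of -0.31 (standard error 0.24), which was -0.017 without SN-CCs replicate 2. Khdc3 overlapped and had -0.49 (standard error 0.35), which was -0.023 without that array.
Of 51 other listed oocyte and egg transcripts 43 were measured. A difference below 0 was found for 31 of these (median -0.17), against 56% of all probes. Without SN-CCs replicate 2 the count was also 31 (median -0.12), against 50.2% of all probes. None of the 43 passed the adjusted test. At an unadjusted p under 0.05, 3 were lower and 0 higher, against 2.02% lower and 1.09% higher of all probes. Those with the smallest p were Omt2b, an oocyte maturation transcript, with 172 and 158 in NSN-CCs against 240 and 180 in SN-CCs (log2 difference -0.58, standard error 0.15), and Oosp1, a secreted protein of the oocyte, with 201 and 221 in NSN-CCs against 327 and 403 in SN-CCs (-1.02, standard error 0.32). Without SN-CCs replicate 2 they were at -0.54 and -0.61. On the higher side the smallest p belonged to Uchl1, a ubiquitin hydrolase that neurons share with the oocyte, with 1208 and 1273 in NSN-CCs against 1104 and 540 in SN-CCs (0.64, standard error 0.25, and 0.31 without SN-CCs replicate 2), and next came Obox2, an oocyte homeobox gene whose probe was under the limit on every array (0.23).
Of the growth factors and zona proteins of the oocyte, Bmp15 had 363 and 376 in NSN-CCs against 558 and 498 in SN-CCs, and Gdf9 had 1012 and 980 in NSN-CCs against 1250 and 1482 in SN-CCs. Neither overlapped between types, with log2 differences of -0.70 (standard error 0.17) for Bmp15 and -0.44 (standard error 0.21) for Gdf9. Without SN-CCs replicate 2 they were -0.52 for Bmp15 and -0.18 for Gdf9. The zona genes gave -0.28 for Zp1, -0.056 for Zp3 and -0.032 for Zp2, whose probe was under the limit on every array, and Fgf8 gave 0.13, which was 0.0067 without SN-CCs replicate 2.

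A further list held genes chosen as somatic or other-tissue paralogs of the members, and whether oocytes express them was not tested. Of 36 such genes 29 were measured, with 20 below 0 and 9 above 0 (median -0.090), against 56% of all probes below 0, and 13 of the 29 were below 0 without SN-CCs replicate 2 (median 0.031), against 50.2% of all probes. Dppa5a, a pluripotency-associated gene, had the smallest p, with 167 and 170 in NSN-CCs against 242 and 248 in SN-CCs (log2 difference -0.81, standard error 0.26, and -0.51 without SN-CCs replicate 2). Npm1, the somatic nucleolar relative of Npm2, gave -0.26 (standard error 0.17), and -0.10 without that array. Higher differences were found for H1f10, a somatic linker histone (0.84, standard error 0.38, and 0.33 without SN-CCs replicate 2), and for Mtcp1, a relative of Tcl1 (0.32, standard error 0.16). H1f10 read 2932 and 3164 in NSN-CCs against 2701 and 1137 in SN-CCs, so that its lowest signal was in SN-CCs replicate 2. None of the 29 passed the adjusted test.
Markers of the other cells in the pools moved as follows, and their part in the members' differences was not tested. Of all probes, 56% had a log2 difference below 0, and 50.2% without SN-CCs replicate 2. Over the brightest probes of 17 granulosa and cumulus markers the summed signal was 221241 and 215535 in NSN-CCs against 235764 and 174387 in SN-CCs. Most of the lower sum in SN-CCs replicate 2 came from Inha, with 45170 and 43879 in NSN-CCs against 46056 and 3760 in SN-CCs. The median log2 difference was 0.24, which was 0.022 without SN-CCs replicate 2. Of the 17 markers, 11 had a log2 difference above 0 and 6 below. Among them Slc38a3, the amino acid transporter of cumulus cells, had 1140 and 1112 in NSN-CCs against 979 and 222 in SN-CCs, and Npr2, the receptor that helps hold meiotic arrest, had 3166 and 3455 in NSN-CCs against 4117 and 8128 in SN-CCs. The log2 difference was 1.18 for Slc38a3 and -0.63 for Npr2, and without SN-CCs replicate 2 they were 0.35 for Slc38a3 and -0.16 for Npr2. The 11 leukocyte markers summed to 2381 and 2490 in NSN-CCs against 2291 and 2495 in SN-CCs (10 below 0, median -0.14, and 2 below 0, median 0.11, without SN-CCs replicate 2). The 11 theca and stroma markers summed to 7897 and 7942 in NSN-CCs against 7401 and 11295 in SN-CCs (8 below 0, median -0.066, and 4 below 0, median 0.082, without SN-CCs replicate 2). The 8 endothelial markers summed to 2236 and 2284 in NSN-CCs against 2080 and 2212 in SN-CCs (5 below 0, median -0.032, and 3 below 0, median 0.15, without SN-CCs replicate 2). Red cell markers, 5 in number, summed to 15435 and 16010 in NSN-CCs against 13466 and 9279 in SN-CCs (4 below 0, median -0.49, and -0.041 without SN-CCs replicate 2). Most of that sum was 1 globin probe, Hba-a1, with 14494 and 15008 in NSN-CCs against 12295 and 7965 in SN-CCs, which was the marker above 0 (log2 difference 0.78, standard error 0.28, and 0.41 without SN-CCs replicate 2). Under the limit on every array were Ptprc, Cd3e and Cd79a of the leukocyte markers, Insl3 and Col1a2 of the theca and stroma markers, and Cdh5 and Kdr of the endothelial markers. The 14 member probes summed to 4108 and 4006 in NSN-CCs against 5270 and 6192 in SN-CCs.

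**Figure D4:**
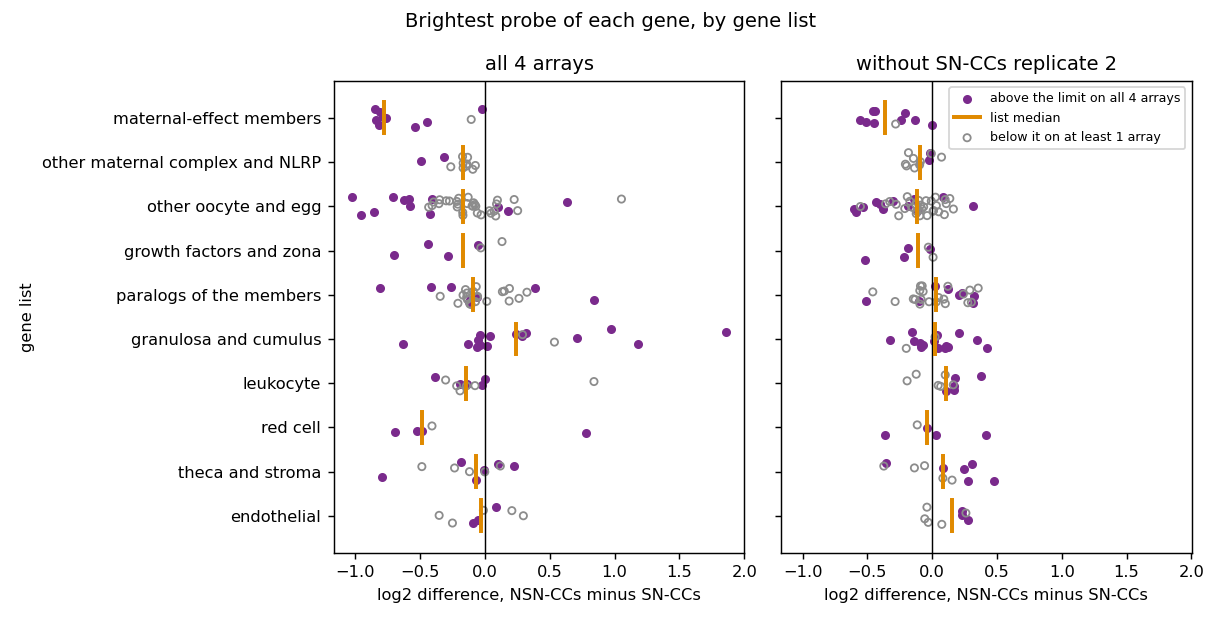
Log2 difference (NSN-CCs minus SN-CCs) of the brightest probe of each gene in 10 gene lists, on all 4 arrays (left) and without SN-CCs replicate 2 (right). The median of the maternal-effect members lies at -0.78 on the left and at -0.36 on the right, whereas the median of the granulosa and cumulus markers lies at 0.24 and 0.022.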

How the data were processed

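The authors hybridised amplified, biotin-labelled cRNA of each pool to its own Illumina mouse-8 BeadChip version 3, and the processing notes name BeadStudio (version 3). The first deposited table holds signal intensities on a linear scale with no background subtraction or scaling. The other table has the intensities as the authors normalized them; the methods name background subtraction and a rank invariant algorithm, yet no value in it is below 66.2. The genome build of the probes is not given in the sources used here.

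From the first table, log2 signals of all 25697 probes, after normexp (offset 50) and quantile normalization, were fitted with limma 3.58.1 in R 4.3.3 with no covariates. The fit was tested on simulated data with the same spread for all probes and both types. The unequal spread of the NSN-CCs and SN-CCs pools was not simulated. Symbols came from the platform annotation, updated through GRCm38.p6 gene IDs (23978 probes with 1 symbol, 1719 with none). For each other gene list, the genes described were drawn from the 2 lower and the 2 higher with the smallest p, on the brightest probe of each gene. Every oocyte growth factor and zona gene was described too. Inha and the markers under the limit were chosen after their values were seen. The members and lists were chosen with earlier results of these data known. The study's methods describe a shared set of ovaries for both types, with more SN than NSN complexes. Which pool of NSN-CCs shares donors with which pool of SN-CCs is not stated. The p-values measure the spread between these pools. The number of pools, 2 per type, limits the precision. Alternatives were the background correction, offset, normalization, table, dim-probe filter, replicate block, array weights, variance trend, background limit, probes used and each array left out.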

Additional observations from a re-analysis of the deposited data

How the results depend on the processing

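The 9 member probes that did not overlap between types were below 0 under each of the 13 alternatives. They were picked by that order on all 4 arrays, so leaving out 1 array could hardly change their sign. The dim-probe filter, replicate block, array weights and variance trend left their differences unchanged. Those alternatives therefore say little on how stable the sign is. The count of member probes with NSN-CCs below SN-CCs was between 9 and 12 under the 13 alternatives. The share of all tested probes with this order also varied, from 22.2% to 49.7%. The count was 12 with the authors' normalized values, where 31% of all probes had this order. It was also 12 without SN-CCs replicate 2, where 35.8% had it. Over the 10 probes that carry the symbol in the deposited table, a choice added after the data were seen, the member count was 6. Of these 10 probes, 3 were lower at an unadjusted p under 0.05, and their median difference was -0.49. The count of member probes lower at an unadjusted p under 0.05 was 0 in the authors' normalized table. Of all probes, 7 were lower and 42 higher there. With each array left out, the members' median difference ranged from -0.95 (without SN-CCs replicate 1) to -0.26 (without SN-CCs replicate 2). Over all probes the median was -0.0645 and -0.00080 in those 2 fits. Counts by p from fits with an array left out are not compared, since 1 type is then left with 1 pool. With the replicate number as a block 5 member probes were lower at an unadjusted p under 0.05 and 0 at an adjusted p under 0.05. Without the block, 4 member probes were lower at that unadjusted p, and no call at an adjusted p under 0.05 changed. Same-numbered pools deviated together by a correlation of 0.041, and crossing the numbers only reversed its sign. That correlation cannot decide whether the numbers pair the pools. The SN-CCs deviations in it hold those of SN-CCs replicate 2, the array least like the others. Over all probes the block gave 390 lower and 220 higher at an unadjusted p under 0.05, against 519 and 281 without the block.

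Among the member probes, signs changed only for those that overlapped. The probes that did not overlap had been picked by their order, so their constant sign is not a test of them. With each array left out in turn, Oas1d probe ILMN_2737613 ranged from -0.31 to 0.28, Padi6 from -0.12 to 0.076, Npm2 from -0.28 to 0.041 and Tcl1 probe ILMN_2638171 from -0.045 to 0.22. In the authors' table the values were -0.49 for that Oas1d probe, 0.088 for Padi6, -0.47 for that Tcl1 probe and -0.53 for Nlrp5 probe ILMN_2646011, with a median of -0.43 over all probes. Median scaling gave -0.049 for that Oas1d probe, and no normalization between arrays gave 0.050 for Padi6. Without SN-CCs replicate 2 the list medians were above 0 for the paralogs (0.031), leukocyte (0.11), theca and stroma (0.082) and endothelial markers (0.15). The cause of these changes was not tested.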

Other observations

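In the authors' normalized table the lowest value of SN-CCs replicate 2 was 182, against 66.2 on each NSN-CCs array and 69.1 on SN-CCs replicate 1. Dim members read higher in that column than in the table before normalization. Dppa3 stood at 140 and 135 in NSN-CCs against 153 and 255 in SN-CCs, where the signals before normalization were 140 and 134 in NSN-CCs against 156 and 157 in SN-CCs. The Nlrp5 probe that was under the background limit on every array, ILMN_2646011, stood at 98.4 and 89.7 in NSN-CCs against 92.8 and 198 in SN-CCs. The bright member Padi6 stood at 828 and 740 in NSN-CCs against 799 and 679 in SN-CCs.

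Both Oas1d and Tcl1 had 1 probe with the highest signal and 1 probe with the lowest signal in SN-CCs replicate 2. Oas1d read 455 and 102 on that array against 407 and 155 on SN-CCs replicate 1, and Tcl1 read 177 and 92.1 against 166 and 108, each time with the brighter probe first.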
